A study of Mus musculus with 16 samples.

Results

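In mouse gene nomenclature the suffix os marks an opposite-strand transcript, a gene annotated on the strand opposite to a host gene whose symbol it carries, as Cep83os does with Cep83. The set described here was chosen by name and by detection. A symbol had to end in os, alone or followed by digits, its stem had to be a symbol of the same table, and its value had to be above 0 in at least 3 of 16 testis libraries. Of 270 symbols with such a name, 78 passed, out of 35920 genes in the table. Their 77 host genes, 1 of which (Kcnmb4) is shared by Kcnmb4os1 and Kcnmb4os2, serve as the comparison. The share that passed was 28.9%, and 44.02% of all genes in the table were above 0 in at least 3 libraries. These counts follow from the choice itself and are a description.

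RNA from mouse testis was incubated with J2, a mouse monoclonal IgG2a antibody that binds double-stranded RNA. The bound RNA (J2) and the unbound RNA (flow-through, which the labels describe as lacking rRNA and dsRNA) were sequenced as separate strand-specific libraries. There were 6 groups. Adult wild-type testis, of a strain labelled unknown, gave 2 J2 and 2 flow-through libraries. Testis labelled Dicer knock-out (Dcr-/-) at postnatal day 18 (P18) gave 3 J2 and 3 flow-through libraries, and wild-type testis at P18 gave 3 of each. Both P18 genotypes were C57BL/6 x 129S4/SvJae, so age and strain cannot be told apart between adult and P18 mice. The cells in which Dicer was deleted are not given in the sources used here. Separate animals are not stated for the replicates, so each p-value reflects only variation among these samples, possibly technical. The spread used in each test is in part pooled over genes, so a p-value does not measure the spread of a single transcript alone. All values are the authors' normalized counts.

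Antisense pairs matter to a double-stranded RNA experiment because RNAs copied from opposite strands of overlapping exons are complementary and can pair. Pairs that start back to back from a shared promoter region share no sequence and have no complementary stretch of this kind. Dicer, the RNase encoded by Dicer1, makes small RNAs by cutting double-stranded precursors, those of microRNAs among them. Testis transcribes an unusually large share of the genome in meiotic and post-meiotic germ cells, long noncoding RNAs included, and the first wave of spermatogenesis is in meiosis at P18, before the spermatids of adult testis are made.

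The 78 names cover several kinds of gene and several layouts. In the RefSeq annotation of GRCm38.p6, 54 were long noncoding or antisense RNAs, 2 were transcribed pseudogenes (Fbxl12os and Speer4cos), 15 had no entry, and 7 were protein-coding genes (Slc7a6os, Fancd2os, Wdr83os, Cebpzos, Trpc5os, Ccpg1os and Cdiptos). Coordinates of both partners were found for 63 pairs. Gene bodies overlapped in 39 and did not overlap in 24. Both strands could be read for 38 pairs, and all 38 were on opposite strands. Among these 38, 13 transcripts lay wholly inside the host body, 10 overlapped the host start and 1 (Rab10os) overlapped the host end. A further 13 were divergent without overlap, with starts 11 to 2804 bases apart (median 67, within 100 bases in 9), and 1 (Slc7a6os) was convergent. Overlap was read from whole gene bodies, so an overlap may lie in introns only.

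The start regions below belong to 2 of the divergent partners detected in nearly all libraries (Wdr83os, another, is not printed) and to the 2 transcripts called between groups. Each window runs from 250 bases before to 50 bases after the annotated start in RefSeq GRCm38.p6, 5′ to 3′ on the transcript's own strand, with the bases from the start onward in capitals. Cep83os lies at chr10:94688564-94688863 (minus strand), 11 bases from the start of Cep83, in a window of 76.7% GC with 46 CpG. Ccpg1os lies at chr9:72985327-72985626 (minus strand), 26 bases from the start of Ccpg1, with 66.0% GC and 33 CpG. Cdiptos lies at chr7:126975797-126976096 (minus strand), beside the Cdipt gene body with a gap of 54 bases between the bodies, with 53.7% GC and 11 CpG. Its window is set on a start inside the annotated gene, whose body reaches to base 126976403. Itpr3os lies at chr17:27101401-27101700 (minus strand), inside the Itpr3 body and 44448 bases from its start, with 59.7% GC and 4 CpG.
Cep83os: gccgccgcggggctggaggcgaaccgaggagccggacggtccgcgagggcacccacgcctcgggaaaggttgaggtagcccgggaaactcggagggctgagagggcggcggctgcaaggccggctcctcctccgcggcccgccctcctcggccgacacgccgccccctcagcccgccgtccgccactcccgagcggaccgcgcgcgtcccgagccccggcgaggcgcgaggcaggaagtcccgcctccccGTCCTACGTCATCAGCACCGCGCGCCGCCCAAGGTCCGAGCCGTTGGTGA
Ccpg1os: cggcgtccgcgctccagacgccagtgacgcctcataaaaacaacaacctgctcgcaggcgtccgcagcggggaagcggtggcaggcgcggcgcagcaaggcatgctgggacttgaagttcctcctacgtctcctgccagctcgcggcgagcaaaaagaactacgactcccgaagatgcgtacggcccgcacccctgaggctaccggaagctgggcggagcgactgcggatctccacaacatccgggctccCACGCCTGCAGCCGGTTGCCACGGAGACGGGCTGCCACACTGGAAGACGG
Cdiptos: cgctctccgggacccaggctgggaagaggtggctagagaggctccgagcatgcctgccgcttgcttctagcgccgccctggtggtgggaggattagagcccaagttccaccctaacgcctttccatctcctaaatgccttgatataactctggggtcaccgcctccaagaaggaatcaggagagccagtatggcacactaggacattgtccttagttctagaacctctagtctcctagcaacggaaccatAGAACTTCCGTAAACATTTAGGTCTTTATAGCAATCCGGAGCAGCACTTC
Itpr3os: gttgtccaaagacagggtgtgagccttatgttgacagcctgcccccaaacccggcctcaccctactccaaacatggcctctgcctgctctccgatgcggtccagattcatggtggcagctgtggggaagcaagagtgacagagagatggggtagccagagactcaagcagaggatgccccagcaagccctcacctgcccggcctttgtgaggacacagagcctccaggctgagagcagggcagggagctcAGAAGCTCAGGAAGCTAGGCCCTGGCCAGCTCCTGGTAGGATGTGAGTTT

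Windows of the same length were available for 50 of the 78 transcripts. Their median GC content was 59.8% and their median CpG number 14, against 52.7% and 7 over all 27025 gene symbols with such a window in the annotation. The 13 divergent transcripts had a median of 67.7% GC and 30 CpG, with 9 to 55 CpG each. Cep83os (46) and Ccpg1os (33) lay above that median CpG number. Wdr83os, also divergent and above 0 in all 16 libraries, had 46.0% GC and the lowest CpG number of the 13, 9. The letters TATAAA, on either strand, were found in none of the 13 divergent windows, in 5 of the 50 and in 14.2% of all. The letters CCAAT, on either strand, were in 30.8% of the divergent windows, 28.0% of the 50 and 37.9% of all. CCGGAAG, the core of an ETS factor motif, was in 15.4%, 8.0% and 9.12% of the same sets, and the Ccpg1os window holds 1 copy. These matches are descriptions of the letters only.

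The libraries limit what can be seen of such transcripts. Column totals were 0.446 to 0.824 M units in J2 and 6.05 to 34.9 M units in flow-through (M, 1e+06), standing for roughly 1.23 to 4.54 M reads in J2 and 0.998 to 5.87 M reads in flow-through. A value of 10 represented roughly 19.4 to 86.3 reads in J2 but for 1.2 to 4.99 reads in flow-through. A value of 0 allows up to 3 reads, worth 0.347 to 1.55 units in J2 and 6.01 to 24.9 units in flow-through, counting error only. Adult J2 replicate 2 stood apart, with 22683 genes above 0 against 6874 to 11591 in the other J2 libraries. Reads of a gene and of its antisense partner can be told apart only if strand was used in quantification, which is not given in the sources used here. All 8 spermatocyte markers were above 0 in every group, with sums of 441 to 1455 in adult and 234 to 1562 in P18 libraries. In bulk testis, fewer cells of a type and less RNA per cell cannot be told apart.

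Most of the 78 transcripts were seen in few libraries and at low values. The median number of libraries above 0 was 4 for the opposite-strand transcripts, 10 for their host genes and 9 for all genes above 0 in at least 3 libraries. Only Cep83os and Wdr83os were above 0 in all 16 libraries, and 11 transcripts, against 48 hosts, were above 0 in 8 or more. A value of 10 or more was reached in no library by 46 transcripts, in exactly 1 library by 18 and in at least 2 libraries by 14. By library, the number of the 78 above 0 was 34 and 76 in adult J2, 28 and 46 in adult flow-through, 29, 27 and 20 in knock-out J2, 14, 26 and 16 in knock-out flow-through, 15, 17 and 28 in wild-type P18 J2, and 8, 21 and 7 in wild-type P18 flow-through. The count of 76 belongs to adult J2 replicate 2, and without that library 56 of the 78 would still be above 0 in at least 3.

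**Figure D1:**
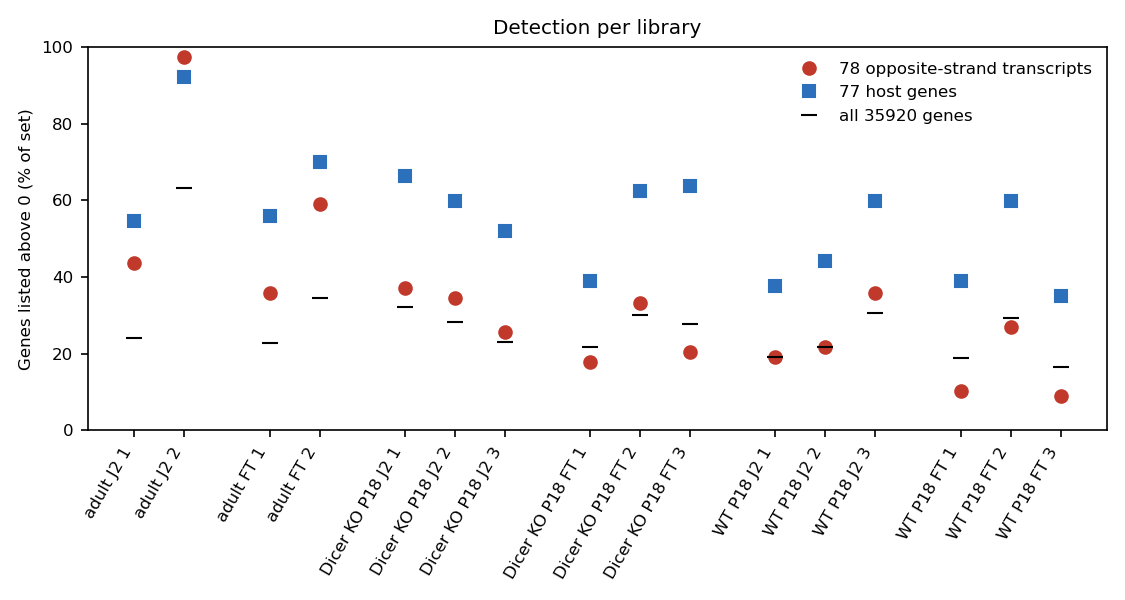
Percentage of the 78 opposite-strand transcripts (red circles), of their 77 host genes (blue squares) and of all 35920 genes (black bars) listed above 0 in each of the 16 libraries; FT is flow-through and WT is wild type. Hosts lie above the opposite-strand transcripts in every library but adult J2 replicate 2, where 97.4% of the transcripts and 92.2% of the hosts were above 0.

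Detection split by age for 11 of the 78 transcripts. In adult libraries and in no P18 library, 10 were above 0: Anxa11os, Atcayos, Grip1os3, Itpr3os, Lyzl4os, Map2k3os, Pitpnm2os1, St8sia3os, Tmem132cos and Ube4bos3. The count was also 10 with adult J2 replicate 2 left out and the 78 kept as chosen. But Anxa11os, Atcayos, Grip1os3, Lyzl4os, Map2k3os, St8sia3os and Tmem132cos were above 0 in exactly 3 libraries, that replicate among them. They would not pass the choice without it, and all 10 passed it only through adult libraries. Only Hoxb5os was above 0 in P18 and in no adult library, but without adult J2 replicate 2 that count was 16. Pitpnm2os1 (2.88 and 3.71 in adult J2, 3.76 and 1.47 in adult flow-through) and Ube4bos3 (3.2 and 2.87 in adult J2, 5.9 and 1.64 in adult flow-through) shared with Itpr3os a value above 0 in all 4 adult libraries and 0 in all 12 P18 libraries. All but Itpr3os stayed below the level needed for a test. Of the hosts, 6 of 77 were above 0 in adult libraries alone, among them Lyzl4, a lysozyme-like gene, and Tmem132c, and the count was 4 without adult J2 replicate 2.

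At P18, 19 transcripts were above 0 in knock-out and in no wild-type library, and 13 in wild-type and in no knock-out library. The same counts for hosts were 7 and 4 of 77. The knock-out J2 libraries held 20 to 29 of the 78 and the wild-type J2 libraries 15 to 28, so the genotypes overlapped. By fraction, 11 transcripts were above 0 in J2 alone and 1 (Zfhx2os) in flow-through alone. With adult J2 replicate 2 left out and the 78 kept as chosen, the flow-through count was 12 and the J2 count 11. Only 56 of the 78 would pass the choice without that library. Of the 77 hosts, 7 were above 0 in J2 alone and 1 in flow-through alone. Shares over all genes are not given here for the splits by age, genotype or fraction. None of these splits is therefore read as particular to these transcripts. Given the worth of a read in each fraction, these counts are descriptions of the lists of zeros and carry no test.

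The 12 transcripts with the highest mean log2 value were Cep83os, Ccpg1os, Slmapos2, Wdr83os, Slc7a6os, Rab10os, Hoxd3os1, Kcnmb4os1, Cdiptos, Brip1os, Tmem147os and Etaa1os, an order of values that is not corrected for transcript length. Cep83os, the divergent partner of Cep83 (a centriole distal appendage protein needed for cilia), was the steadiest. Its values were 19.9 and 105 in adult J2, 24.1 and 31.9 in adult flow-through, 44.3, 17.6 and 16.2 in knock-out J2, 27.5, 29.5 and 27.5 in knock-out flow-through, 8.19, 12.9 and 59.0 in wild-type P18 J2, and 50.2, 37.3 and 7.58 in wild-type P18 flow-through. All 6 groups overlapped, and group means ran from 26.0 to 62.4. Cep83 itself varied more and was 0 in 3 of the 6 wild-type P18 libraries, at 4.47, 5.01 and 0 in J2 and 0, 28.2 and 0 in flow-through.

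Ccpg1os and Wdr83os are divergent protein-coding partners. Ccpg1 encodes an endoplasmic reticulum membrane protein that acts as a receptor for autophagy of that organelle, and Wdr83os encodes a small subunit of a chaperone complex in the endoplasmic reticulum membrane. Ccpg1os averaged 53.6 ± 42.5 in adult J2 and 34.3 ± 20.3 in adult flow-through (SD, n = 2 each), 30.6 ± 15.9 in knock-out J2 and 8.66 ± 3.45 in knock-out flow-through, and 25.0 ± 21.2 in wild-type P18 J2 and 13.2 ± 13.3 in wild-type P18 flow-through (SD, n = 3 each). In the knock-out its J2 values of 12.7, 36.2 and 42.9 all lay above its flow-through values of 6.26, 12.6 and 7.1, without passing the test. Ccpg1 ran the other way in that pair, at 0, 1.07 and 8.54 in knock-out J2 and 11.3, 0 and 14.5 in knock-out flow-through, with overlap. Wdr83os reached 83.6 in knock-out J2 replicate 3 and 32.5 in wild-type P18 J2 replicate 1, and lay between 0.786 and 22.5 in the other 14 libraries. Its host Wdr83, a WD-repeat scaffold protein gene, stayed at or below 19.4 and was 0 in 7 libraries.

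Slmapos2, for which no position was found, is named for Slmap, which encodes a tail-anchored membrane protein of the STRIPAK phosphatase complex. It had 143 and 42.9 in adult J2, 9.4 and 4.25 in adult flow-through, 14.7, 0.548 and 137 in knock-out J2, 21.7, 10.1 and 3.27 in knock-out flow-through, 16.5, 5.01 and 9.28 in wild-type P18 J2, and 0, 9.96 and 0 in wild-type P18 flow-through. The adult J2 values were above both adult flow-through values and above all 3 wild-type P18 J2 values, while knock-out J2 spanned nearly the whole range. Rab10os, at the end of the small GTPase gene Rab10, was above 0 in 12 libraries with a highest value of 37.6 in knock-out J2 replicate 3. Kcnmb4os1 overlaps Kcnmb4, an accessory subunit of the large-conductance calcium-activated potassium channel, and was above 0 in 11 libraries with values up to 23.3. Etaa1os and Tmem147os were each above 0 in 7 libraries. Etaa1os, divergent from Etaa1 (an activator of the ATR checkpoint kinase), reached 11.5 in adult J2 replicate 1, and Tmem147os reached 22.9 in knock-out J2 replicate 1.

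**Figure D2:**
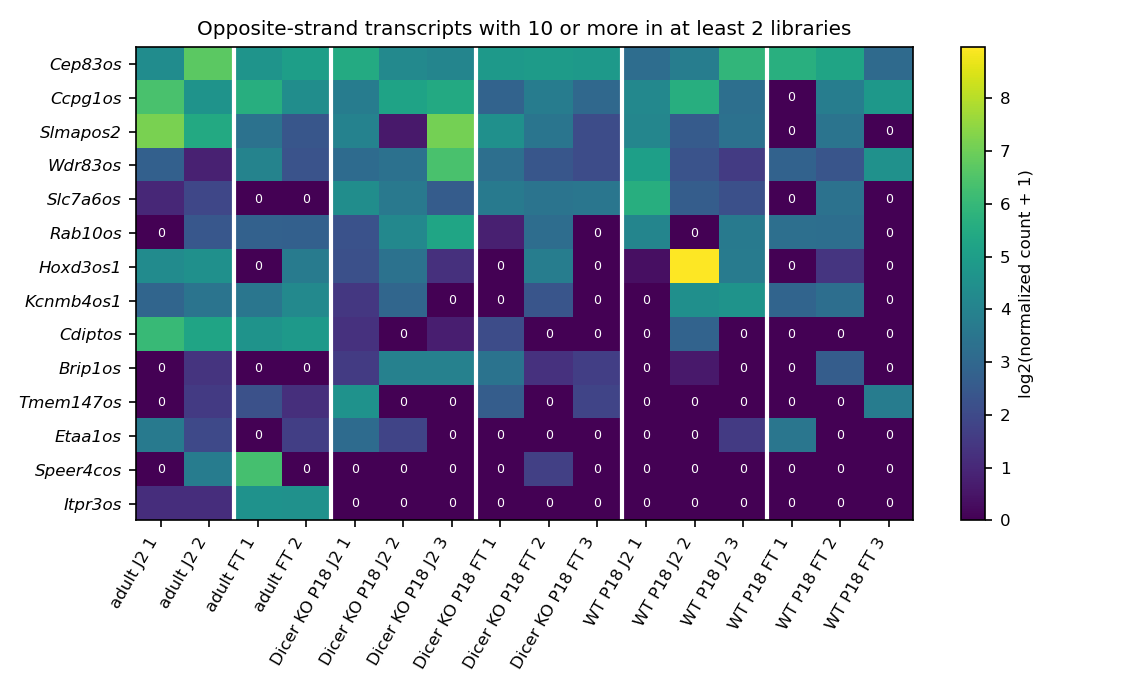
Heat map of log2(normalized count + 1) for the 14 opposite-strand transcripts with a value of 10 or more in at least 2 of the 16 libraries (rows, ordered by mean) across the libraries (columns, white lines between groups, FT for flow-through, WT for wild type); a 0 in a cell marks a value of 0. Cep83os and Wdr83os have no 0, Itpr3os has values in the 4 adult libraries only, and Hoxd3os1 has 1 extreme cell in wild-type P18 J2 replicate 2.

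Several high values belonged to 1 library. Hoxd3os1, which overlaps the start of the homeobox gene Hoxd3, was 502 in wild-type P18 J2 replicate 2, about 1660 reads, and at most 21.7 in the other 15 libraries. Hoxd3 was 0 in that library and in 15 of the 16. Dbhos reached 74.5 in knock-out flow-through replicate 1, about 9.19 reads, Zbtb11os1 reached 70.0 in wild-type P18 J2 replicate 2, Ppp1r18os 62.5 in wild-type P18 J2 replicate 1 and Cdk19os 60.8 in adult J2 replicate 1. None of these 5 high values recurred in a replicate of the same group, and Cdk19os came closest, with 9.47 in the other adult J2 library.

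J2 was first set against flow-through in adult testis, to see whether antisense-named transcripts were held in the double-stranded fraction. With limma on log2(value + 1), fitted over 16 libraries and 9526 genes that had 10 or more in at least 2 of them, 14 of the 78 transcripts were tested. Itpr3os was lower in adult J2, and no transcript was higher at a Benjamini-Hochberg adjusted p under 0.05. Of all genes tested, 0.147% were called higher and 0.168% lower. Itpr3os lies inside Itpr3, which encodes an inositol trisphosphate receptor that releases calcium from the endoplasmic reticulum. It had 1.25 and 1.27 in adult J2 and 22.7 and 22.3 in adult flow-through, and these values do not overlap. Its log2 change was -3.38 (SE 0.67, limma adjusted p = 0.0272, lower in J2 in both replicates). Its own values hardly varied within a group, so this SE came mostly from the spread of other genes in the fit. It reached 10 in the 2 adult flow-through libraries and in no other, so it met the level for a test only through the group in which it was high, and the direction of this call was fixed by that level. With no filter on low values its limma adjusted p was 0.0075. Of 8 cell type marker sums, 4 did not overlap between the same libraries. The spermatocyte sum was 1343 to 1455 in adult J2 and 441 to 670 in adult flow-through. The spermatid, peritubular and blood sums were lower in adult J2. Markers within a list did not all move together. Ldhc, Pgk2 and Sycp3 were higher in both adult J2 libraries. Piwil1 (4.6 and 43.2 in adult J2, 117.5 and 58.9 in adult flow-through) and Spo11 were lower. Among spermatid markers, Spaca1 was higher in adult J2 (29.5 and 29.9, against 0 and 5.62 in adult flow-through). The part of these markers in this result was not tested.

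The Itpr3os values stand for about 5.05 and 11.0 reads in adult J2 and 4.7 and 10.4 reads in adult flow-through, so about as many reads were counted in both fractions, while 1 read was worth 0.116 to 0.248 units in adult J2 and 2.14 to 4.83 in adult flow-through. With every library rescaled to the same total (mitochondrial genes left out), its log2 change was 0.31 (limma adjusted p = 0.54), and the median of all genes moved to 2.74 from 0.05 in the deposited scaling. The call was also lost without a mean trend (limma adjusted p = 0.355), with only the adult libraries fitted (0.613) and without adult J2 replicate 1 (0.055), and Itpr3os did not meet the level for a test without either adult flow-through library. Itpr3 was 68.8 and 2.49 in adult J2 and 5.64 and 5.37 in adult flow-through, overlapping, and was not tested.

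The other 13 tested transcripts were not called in adults, and the median log2 change over the 14 was 0.58, against 0.05 over all genes. Slmapos2 had the largest positive change (log2 change 3.43, SE 1.71, limma adjusted p = 0.77), and its host Slmap changed by 2.26 (SE 1.68, adjusted p = 0.86). Hoxd3os1 followed (log2 change 2.54, SE 2.11, adjusted p = 0.88), and Rab10os was at -1.57 (SE 1.73, adjusted p = 0.93). The log2 change was positive for 8 of the 14 (57.1%, against 51.1% of all genes). Under the common total the sign turned for all 6 transcripts with a negative change in adults: Itpr3os, Rab10os (1.10), Kcnmb4os1 (3.03, against -0.69 in the deposited scaling), Wdr83os (1.71, against -1.37), Speer4cos (0.90, against -1.27) and Tmem147os (0.88, against -0.96). Of the hosts, 43 were tested and 0 were called in adults by limma, with 8 at an unadjusted p under 0.05 (18.6%, against 6.64% of all genes). Under the common total of all libraries, 5 of the 14 transcripts were called higher in adult J2 and none lower (Ccpg1os, Cdiptos, Cep83os, Etaa1os and Slmapos2), as were 36.3% of all genes.

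In Dicer knock-out testis 0 of 14 transcripts were called between J2 and flow-through by limma. At an unadjusted p under 0.05 there were 0 as well, against 11.5% of all genes. Of all genes, 0.168% were called higher and 0.189% lower. The log2 change was positive for 10 of the 14, with a median of 0.61 against -0.15 over all genes. Rab10os had the largest, 2.57 (SE 1.41, limma adjusted p = 0.51), from 3.82, 17.0 and 37.6 in J2 and 0.734, 8.25 and 0 in flow-through, which overlap. Wdr83os followed with 1.70 (SE 1.23, adjusted p = 0.64), and Cep83os was at -0.26 (SE 0.95, adjusted p = 0.98), which was 3.40 under the common total. Speer4cos, listed at 0 in all 3 knock-out J2 libraries, was 2.22 in knock-out flow-through replicate 2 and 0 in the other two.

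In wild-type P18 testis 0 of 14 were called by limma, with 1 at an unadjusted p under 0.05 (13.9% of all genes were), where 0.525% of all genes were called higher and 0.378% lower in J2. That 1 was Hoxd3os1, at 0.277, 502 and 12.3 in J2 and 0, 1.61 and 0 in flow-through (log2 change 3.89, SE 1.72, adjusted p = 0.31), overlapping because of the lowest J2 value. Slc7a6os was next, with 48.4, 5.33 and 3.56 in J2 and 0, 9.32 and 0 in flow-through (log2 change 2.37, SE 1.23, adjusted p = 0.40). Brip1os was at -0.68 (SE 0.99, adjusted p = 0.81), a sign that turned under 2 alternatives. The median over the 14 was 0.21, against -0.05 over all genes. Tmem147os was listed at 0 in all 3 J2 libraries and at 0, 0 and 12.6 in flow-through. Its host Tmem147, an endoplasmic reticulum membrane protein gene, was the 1 host of 43 called: 0, 0.268 and 1.83 in J2 against 21.8, 20.4 and 25.8 in flow-through (log2 change -3.94, SE 0.92, limma adjusted p = 0.0482). That call was lost without any 1 of 5 of the 6 libraries compared, with adjusted p-values of 0.0797 to 0.133. The Tmem147 values stand for about 0, 0.887 and 9.16 reads in J2 and 3.66, 10.2 and 3.1 reads in flow-through. In these libraries 1 read was worth 0.2 to 0.426 units in J2 and 2.0 to 8.31 units in flow-through.

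Under the common total, 7 of 14 transcripts were called higher and none lower in knock-out J2, and 5 higher and none lower in wild-type P18 J2. Ccpg1os, Cep83os, Slc7a6os and Slmapos2 were in both lists. With this scaling 29.9% of all genes were called higher in knock-out J2 and 26.9% in wild-type P18 J2, and the median of all genes moved to 2.16 and 1.87. The sign turned to positive for 2 of the 3 transcripts with a negative change in the knock-out (Cdiptos and Cep83os) and for 4 of the 5 in wild-type P18 (Brip1os, Cep83os, Etaa1os and Wdr83os). Of the 8 pairs with both partners tested, the signs of the log2 changes matched in 4 in adults, 4 in the knock-out and 2 in wild-type P18. No difference in this contrast between genotypes or ages passed the test. The genotype by fraction interaction gave 0 calls by limma, and 0% of all genes were called in either direction. At an unadjusted p under 0.05 were 0 transcripts and 4.78% of all genes. The age by fraction interaction also gave 0 calls, with 1 transcript (7.14%, against 5.4% of all genes) at an unadjusted p under 0.05. That was Itpr3os (-3.38, SE 0.87, adjusted p = 0.43, and 0.31 under the common total).

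**Figure D3:**
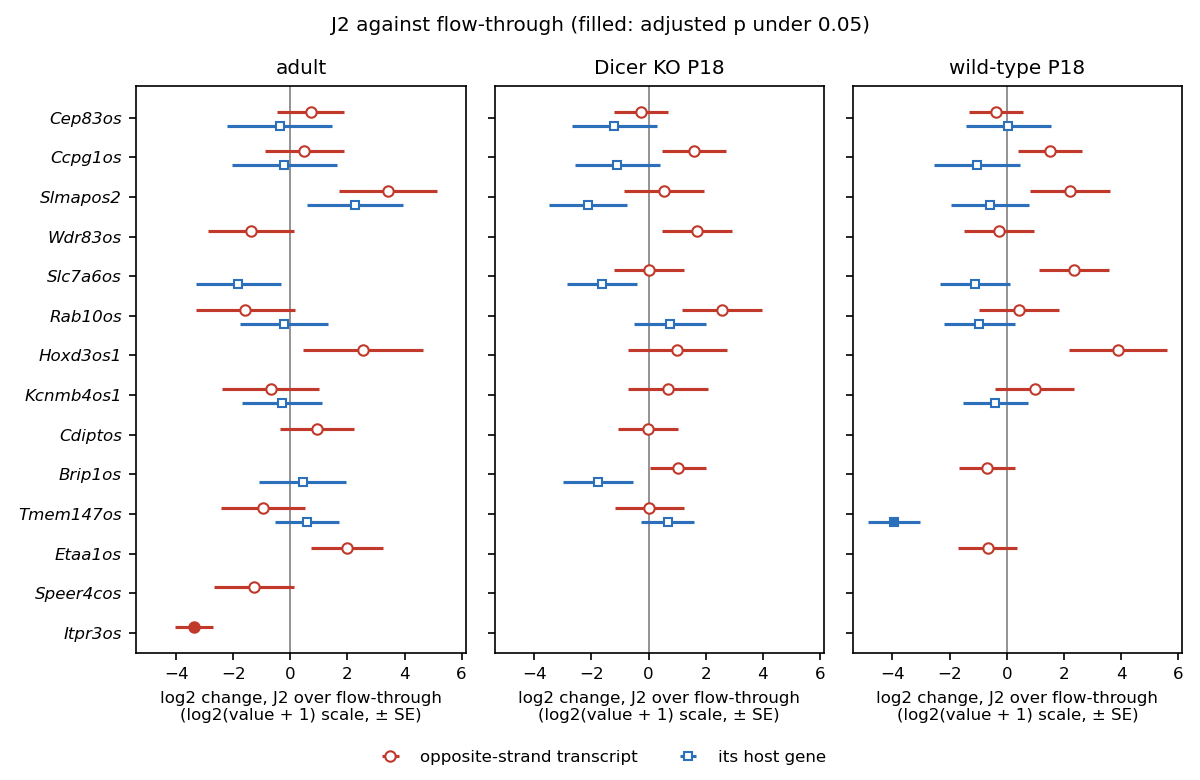
Log2 change of J2 over flow-through, on the log2(value + 1) scale with its standard error, for the 14 tested opposite-strand transcripts (red circles) and those of their hosts that were tested (blue squares) in adult, Dicer knock-out (KO) and wild-type P18 testis. Filled symbols have a limma adjusted p under 0.05, which are Itpr3os in adults and the host Tmem147 in wild-type P18, and a symbol is left out where either fraction was listed at 0 in all libraries.

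Adult testis was then set against wild-type P18 testis within each fraction, over the 8 libraries of that fraction. In flow-through 9 of the 78 transcripts were tested. Itpr3os and Cdiptos passed, both higher in adults, but each reached 10 in the 2 adult flow-through libraries and in none of the 6 at P18. They met the level for a test only through the adult group, so they could be called in that direction alone, and the values below are a description. With no filter neither passed (limma adjusted p = 0.118 for Itpr3os and 0.128 for Cdiptos). Of all 7141 genes tested, 3.08% were called higher and 0.154% lower. Cdiptos is a protein-coding gene beside Cdipt, which encodes phosphatidylinositol synthase. Cdiptos had 23.2 and 27.1 in adult flow-through and was listed at 0 in all 3 wild-type P18 flow-through libraries (limma adjusted p = 0.0134). Itpr3os had 22.7 and 22.3 in adult flow-through and was likewise listed at 0 in all 3 (adjusted p = 0.0024).

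A 0 in the wild-type P18 flow-through libraries allows values of up to 17.9, 6.01 and 24.9 (3 reads), and the third limit lies above 3 of the 4 adult values. Without wild-type P18 flow-through replicate 1 or 3 the Cdiptos call was lost (adjusted p = 0.0557 and 0.0593), and without either adult flow-through library neither transcript met the level for a test. The other 7 tested transcripts were not called. Kcnmb4os1 had 10.6 and 17.8 in adult flow-through, above 6.41, 8.47 and 0 in wild-type P18 flow-through (log2 change 1.84, SE 1.33, limma adjusted p = 0.67).

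In J2 the same contrast covered 10 transcripts, of which 0 were called by limma and 1, Cdiptos, was at an unadjusted p under 0.05. Of all 6882 genes, 5.07% were called higher and 0.392% lower in adult J2. Cdiptos had 64.4 and 36.5 in adult J2 and 0, 6.16 and 0 in wild-type P18 J2, with no overlap (log2 change 4.68, SE 1.20, adjusted p = 0.0552), and it met the level for a test only through adult J2. Those adult values stand for about 260 and 315 reads, and the 6.16 for 20.4 reads. The adjusted p was 0.0072 without wild-type P18 J2 replicate 2, which holds that value, and 0.0889 under the common total. Without either adult J2 library Cdiptos did not meet the level for a test. Slmapos2 was the next largest (log2 change 2.95, SE 1.68, adjusted p = 0.51), and the lowest was that of Slc7a6os, at 1.01 and 2.73 in adult J2 and 48.4, 5.33 and 3.56 in wild-type P18 J2 (log2 change -2.04, SE 1.5, adjusted p = 0.62).

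In the knock-out, Cdiptos was at 1.44, 0 and 0.688 in J2 and 3.29, 0 and 0 in flow-through, so all 12 P18 values lay at or below 6.16 and all 4 adult values at or above 23.2. Cdipt was at 11.3 and 5.2 in adult J2 and 0 and 6.07 in adult flow-through, at most 6.98 in the P18 libraries, and was not tested. Itpr3os was 0 in all 6 J2 libraries at P18 as well, where 3 reads are worth 0.6 to 1.55, close to its adult J2 values of 1.25 and 1.27. Markers of several cell types differed between the same libraries. The summed value of 9 spermatid markers was 1735 to 2033 in adult J2 and 2266 to 2575 in adult flow-through, and 3.56 to 36.5 in the P18 libraries of both genotypes and fractions, with 4 to 7 of the 9 markers at 0 in all libraries of a P18 group. The summed value of 3 blood markers was 4.03 to 5.79 in adult J2 and 104 to 414 in wild-type P18 J2, and 11.4 to 17.0 in adult flow-through and 111 to 166 in wild-type P18 flow-through. The spermatogonium, Sertoli and peritubular sums were also lower in adult than in wild-type P18 J2 without overlap (peritubular 9.77 to 11.1 in adult J2 and 73.3 to 149 in wild-type P18 J2), and overlapped in flow-through. The part of cell content in these results was not tested.

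**Figure D4:**
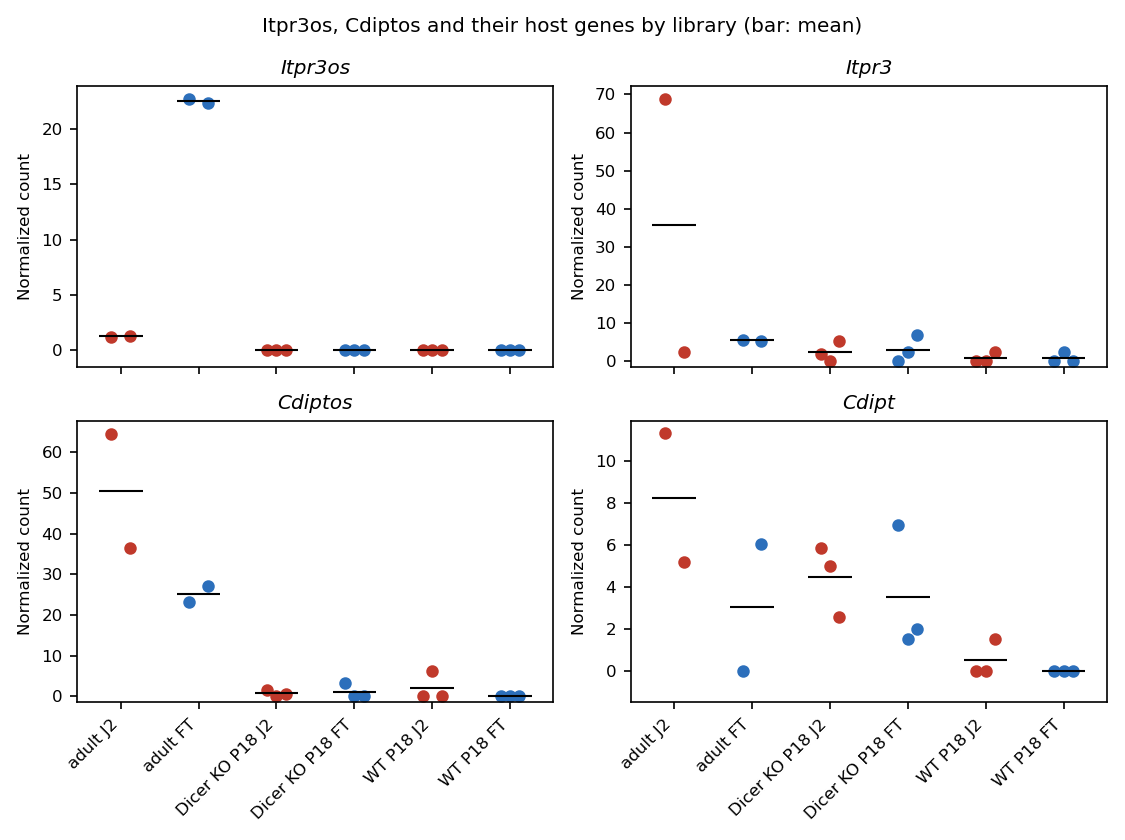
Normalized counts of Itpr3os, Cdiptos and their host genes Itpr3 and Cdipt in each library (points, red for J2 and blue for flow-through, FT) with group means (black bars), for adult, Dicer knock-out (KO) and wild-type (WT) P18 testis, on separate linear scales. Itpr3os is above 0 in adult libraries only, with about 22 in flow-through and about 1.3 in J2, and Cdiptos is at 23.2 or more in every adult library and at 6.16 or less in every P18 library.

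Among 34 hosts tested in J2, 2 were called higher in adults, Mipep and St8sia3, a share of 5.88% that is close to the 5.07% of all genes. Mipep, the mitochondrial intermediate peptidase gene, was at 96.1 and 55.4 in adult J2 and 0, 6.0 and 2.6 in wild-type P18 J2 (log2 change 4.65, SE 1.14, limma adjusted p = 0.0431), a call that was lost without either adult J2 library or wild-type P18 J2 replicate 1 or 3. St8sia3, a sialyltransferase gene, was at 256 and 24.5 in adult J2 and listed at 0 in all 3 wild-type P18 J2 libraries (limma adjusted p = 0.0021). It reached 10 in no P18 J2 library, so it met the level for a test only through adult J2 and could be called in no other direction, and with no filter its adjusted p was 0.0953. It did not meet that level without either adult J2 library. Their opposite-strand partners stayed too low for a test. St8sia3os, 1 of the 10 adult-only transcripts, was 0 and 2.72 in adult J2 and 2.48 and 6.41 in adult flow-through, and Mipepos was at most 2.55 in any library. In flow-through 0 of 31 hosts were called by limma, with 1 at an unadjusted p under 0.05 (3.23%, against 11.7% of all genes).

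Knock-out was set against wild-type P18 testis to see whether loss of Dicer changed the level of antisense-named transcripts. Dicer1, the targeted gene, was 3.39, 0 and 0 in knock-out J2 and 0, 3.68 and 8.33 in knock-out flow-through, and 11.3, 0 and 8.64 in wild-type P18 J2 and 5.1, 12.4 and 0 in wild-type P18 flow-through. The genotypes overlapped in both fractions (in J2 log2 change -1.58, SE 1.28, limma adjusted p = 0.91), so at this depth Dicer1 does not check the labels, and the deleted part of the gene is not given in the sources used here. In J2 0 of 10 transcripts were called by limma, with 1 at an unadjusted p under 0.05, and in flow-through 0 of 9, again with 1. Of all genes, 0% were called in either direction in J2 or in flow-through, and 6.39% and 6.11% were at an unadjusted p under 0.05. The median log2 change was 0.37 over the 10 in J2 and 0.35 over the 9 in flow-through, against 0.13 and 0.33 over all genes.

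The transcript below the unadjusted threshold in J2 was Brip1os, which lies 144 bases from the body of Brip1, a DNA helicase of the Fanconi anaemia pathway. Brip1os had 1.95, 14.5 and 14.4 in knock-out J2 and 0, 0.522 and 0 in wild-type P18 J2, with no overlap (log2 change 2.95, SE 0.78, unadjusted p = 0.0037, limma adjusted p = 0.68). Its flow-through values were 9.8, 1.41 and 2.14 in the knock-out and 0, 5.32 and 0 in wild type, which overlap. Brip1 was 0.593, 15.6 and 0 in knock-out J2 and 0 in all 3 wild-type P18 J2 libraries. In flow-through the transcript below that threshold was Slc7a6os, whose yeast counterpart helps carry RNA polymerase II into the nucleus. It had 11.7, 9.89 and 10.6 in knock-out flow-through and was listed at 0, 9.32 and 0 in wild-type P18 flow-through (log2 change 2.43, SE 1.04, limma adjusted p = 0.79). The 2 zeros allow up to 17.9 and 24.9 (3 reads), above all 3 knock-out values. Those values stand for about 1.45, 4.85 and 3.83 reads, and the 9.32 for about 4.65. In J2 Slc7a6os had 20.2, 11.5 and 5.16 in the knock-out and 48.4, 5.33 and 3.56 in wild-type P18, which overlap. Brip1os and Slc7a6os each met the level for a test only through the knock-out libraries of the fraction concerned. Of 8 marker sums, 1 did not overlap between the same libraries in each fraction. The spermatocyte sum was 506 to 653 in knock-out J2 and 739 to 1562 in wild-type P18 J2, and it overlapped in flow-through. Within that list Ldhc, the largest part, overlapped in J2, as did Hormad1 (26.6, 7.57 and 0 in the knock-out, 4.48, 6.2 and 10.6 in wild type). The Sertoli sum was 249 to 310 in knock-out flow-through and 151 to 167 in wild-type P18 flow-through, and it overlapped in J2. Clu made up most of it, and Rhox5 overlapped (14.2, 0 and 0 against 0, 0 and 18.1 in flow-through). The part of these markers in these values was not tested.

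The lowest log2 changes were those of Hoxd3os1 in J2 (log2 change -2.08, SE 1.92, limma adjusted p = 0.91) and Kcnmb4os1 in flow-through (-1.26, SE 1.19, adjusted p = 0.89). The first rests on 1 library and was 0.23 without wild-type P18 J2 replicate 2. Kcnmb4os1 in J2 (-1.56, SE 1.54, adjusted p = 0.91), Wdr83os in J2 (1.32, SE 1.48, adjusted p = 0.93) and Slmapos2 in flow-through (2.21, SE 1.29, adjusted p = 0.85) did not pass either. Of the hosts, 0 of 34 in J2 and 0 of 31 in flow-through were called by limma. The log2 change was positive for 76.5% of the hosts in J2 (53.5% of all genes) and 58.1% in flow-through (60.7% of all genes). The host median was 0.99 in J2 and 0.31 in flow-through, against 0.13 and 0.33 over all genes. At an unadjusted p under 0.05 were 5 hosts in J2 (14.7%, against 6.39% of all genes). In flow-through there were 2 (6.45%), a share close to the 6.11% of all genes. The 2 in flow-through were Mkln1 (-3.39, SE 1.06, adjusted p = 0.78) and Wt1, the Wilms tumour transcription factor of Sertoli cells and 1 of the 7 Sertoli markers in the sum above (log2 change 3.93, SE 1.09, adjusted p = 0.75), which met the level for a test only through the knock-out.

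By layout, the median number of libraries above 0 was 5 for the 13 divergent transcripts, 4 for the 13 inside a host body and 4 for the 10 at a host start, and 4, 1 and 1 of them were tested. Itpr3os is 1 of the 13 inside a host body. Cdiptos is in none of these sets: its body does not overlap that of Cdipt, and the strand of Cdipt is not given in the annotation used here. Of 15 other named noncoding RNAs, among them the antisense transcripts Airn, Kcnq1ot1, Nespas and Tsix, 5 were tested between J2 and flow-through and 0 were called in any of the 3 groups by limma, with 1 at an unadjusted p under 0.05 in each. Those were Kcnq1ot1 in adults (log2 change 3.62, SE 1.40, adjusted p = 0.66), Neat1 in the knock-out (3.67, SE 1.68, adjusted p = 0.41) and Meg3 in wild-type P18 (4.13, SE 1.61, adjusted p = 0.24).

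At the edge of the choice, 24 transcripts were above 0 in exactly 3 libraries. Their highest values ran from 0.515 to 79.3 (median 4.82), and Speer4cos, named for a family of spermatogenesis-associated proteins, had the top one in adult flow-through replicate 1. Just outside, 51 symbols were above 0 in 2 libraries, with highest values of 0.185 to 39.5 (median 2.1), led by Pip5k1bos. A further 77 were above 0 in 1 library and 64 in none.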

How the data were processed

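The submitters' processing notes name FastQC, Trimmomatic, Salmon, DESeq2 and the genome build mm10, with no version or setting; libraries were made with the NuGEN Ovation SoLo kit, per the labels. The deposited values are a signal made by the authors on a normalized count scale, 1 per Ensembl gene and library; 35446 identifiers matched a symbol and 474 did not, 0 columns matched no sample and 0 pairs of columns were identical. Whole reads could not be recovered, so no count test was run; the worth of 1 read was approximated from values that genes share and their multiples (up to 20, tolerance 1e-06).

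Log2(value + 1) was tested with limma 3.58.1 in R 4.3.3 (empirical Bayes with a mean trend, two-sided), on genes with 10 or more in at least 2 fitted libraries, with Benjamini-Hochberg adjustment over all genes tested and a threshold of 0.05. Folds on this scale understate the change of low genes. J2 against flow-through and the 2 interactions were fitted on all 16 libraries, the other comparisons on the 8 libraries of a fraction. The fit was checked on simulated data, with changes placed only in genes of a higher mean than any opposite-strand transcript. That check does not cover the level of these transcripts. No batch is given in the labels. Alternatives changed the pseudocount, filter, scaling, trend, libraries fitted and replicate block, and left out each replicate.

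The opposite-strand transcripts and the lists were chosen with earlier results of these data known. Named genes are those called in any of the 9 comparisons, the 12 opposite-strand transcripts with the highest mean, the 2 largest rises and 2 largest falls per two-group comparison, and Dicer1, each with its host; single high values, transcripts without overlap, Pitpnm2os1, Ube4bos3 and the unadjusted hosts and other RNAs were named after their values were seen.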

Additional observations from a re-analysis of the deposited data

How the results depend on the processing

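Counts of called transcripts (of hosts, where said) moved in these settings. The share of all genes called also moved, so no count is read as particular to these transcripts or hosts. For adult J2 against flow-through that share was 0.805% higher and 0.231% lower with no filter, and 0.0705% and 0.459% with a filter of 50. For adult against wild-type P18 in flow-through it was 0% with no filter, and 3.19% and 0.467% with a filter of 50. Under the common total 7 transcripts were called in the knock-out, 5 in wild-type P18 and 5 in adults for J2 against flow-through, all higher. Hosts were at 17, 6 and 21 there. They were at 1 for adult against wild-type P18 in J2 and at 2 for the age by fraction interaction. For adult J2 against flow-through the count of 1 became 2 with no filter and 0 with a filter of 50, no mean trend, only the groups compared or the replicate block, and 0 to 1 with replicates left out (0 without adult J2 replicate 1 or either adult flow-through library). Adult against wild-type P18 in flow-through (2) fell to 0 with no filter or a filter of 50 and to 0 to 1 with replicates left out, and in J2 (0) it was 1 with a pseudocount of 10, with all 16 libraries or without wild-type P18 J2 replicate 2. For hosts, J2 against flow-through was 1 with a filter of 50 and 1 without knock-out J2 replicate 1 in the knock-out, and 1 with no filter in adults; in wild-type P18 it was 0 with a pseudocount of 10, no filter, quantile normalization, only the groups compared or the block, 3 with a filter of 50 and 0 to 2 with replicates left out. Hosts in adult against wild-type P18 J2 were at 1 with a pseudocount of 0.5, 0 with no filter or a filter of 50 and 0 to 1 with replicates left out, and at 1 with no filter in the age by fraction interaction. Among the log2 changes of the named transcripts in the comparison that named them, those that turned sign were Brip1os in wild-type P18 J2 against flow-through (0.067 under the common total, -1.13 to 0.20 with replicates left out), Cep83os in the knock-out (3.40), Itpr3os (0.31) and Rab10os (1.10) in adults, all 3 under the common total, Hoxd3os1 for knock-out against wild type in J2 (-4.08 to 0.23 with replicates left out, 0.23 without wild-type P18 J2 replicate 2) and Wdr83os for adult against wild-type P18 in flow-through (-0.53 to 0.77 with replicates left out, 0.77 without adult flow-through replicate 2). Over all tested transcripts, the common total turned the sign of 6 of 14 in adults, 2 of 14 in the knock-out and 4 of 14 in wild-type P18 for J2 against flow-through, 2 of 10 (Cep83os and Slc7a6os) and 2 of 9 (Ccpg1os, -0.39 against 0.35, and Cep83os) for knock-out against wild type in J2 and in flow-through, 0 of 10 and 1 of 9 (Cep83os) for adult against wild-type P18 in the same fractions, and 5 and 0 of 14 for the age and genotype by fraction interactions. The causes were not tested. A code shared by 1 J2 and 1 flow-through library gave the replicate block, but same-code libraries did not deviate together (r across genes -0.0264 to 0.0306 over 8 pairs, -0.0628 to 0.0379 over 14 others), so the codes are not taken as pairs. Under the block the Itpr3os adjusted p was 0.113. The alternative of an exon overlap of 50 bases was not run, since exons are not in the annotation used here. Under a filter of 50 no transcript was tested within flow-through, and Slc7a6os (adult against wild-type P18 flow-through without its replicate 2) and Speer4cos (knock-out without flow-through replicate 2) were at 0 in both groups and gave no change. Values of 0 in flow-through allow more units than in J2, which limits the comparisons that use flow-through.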
